A study of Homo sapiens with 14 samples.

Results

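Genes of sterol and fatty acid synthesis were followed in U2OS cells whose E2F1 activity was switched on by a drug and whose FOXO1 and FOXO3 were lowered by hairpins. The set was a list of 38 genes, and each gene was represented by the probe set with the highest mean log2 signal over the 14 arrays. Of the 38 genes, 31 were tested among the 7720 genes that passed a filter on low signal. TM7SF2, a sterol reductase, had a probe set below that filter. CYP51A1, which demethylates lanosterol, ELOVL1, which elongates fatty acids, and FADS1, a fatty acid desaturase, appeared in probe sets that name several genes, and no value of theirs is given. FDFT1 (squalene synthase), STARD4 (a sterol carrier) and ACSL3 (a fatty acid activating enzyme) were not analysed here.

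Cells build cholesterol from acetyl-CoA through mevalonate, isoprenyl diphosphates and squalene, which is closed into lanosterol and trimmed to cholesterol. The transcription factors SREBP1 and SREBP2, made from SREBF1 and SREBF2, sit in the endoplasmic reticulum bound to SCAP. INSIG1 and INSIG2 hold them there while sterols are plentiful, and when sterols fall SCAP carries them to the Golgi, where they are cut free to enter the nucleus. Their targets include most enzymes of sterol synthesis and, for SREBP1, the enzymes that make, elongate and desaturate fatty acids.

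U2OS is a human osteosarcoma line, and the cells used here carried ER-E2F1, a fusion of E2F1 to an estrogen receptor domain that 4-hydroxytamoxifen (OHT) activates. All cells were infected with a hairpin lentivirus, starved of serum, and either given 20 nM OHT for 6 h or left without it. The 6 groups were shFOXO707 with OHT (2 arrays), shFOXO33 with OHT (2), scrambled hairpin with OHT (4), shFOXO707 without OHT (1), shFOXO33 without OHT (1) and scrambled hairpin without OHT (4). The groups called knockdown below pool the arrays of shFOXO707 and shFOXO33, which were directed against FOXO1 and FOXO3. All 6 groups carried ER-E2F1 and were serum-starved, and no group received OHT without ER-E2F1, so effects of OHT itself and of E2F1 cannot be told apart. The labels do not say whether replicates came from separate cultures, so the p-values cover the spread among these arrays alone, and that spread may be technical. In bulk RNA, fewer cells that express a gene and less RNA per cell cannot be told apart.

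The median signal of an array lay between 115 and 120 with OHT and between 137 and 143 without OHT, although all arrays were scaled to the same trimmed mean. FOXO3 averaged 810 in shFOXO707 cells and 307 in shFOXO33 cells with OHT (n = 2 each), against 1793 ± 45.2 in scrambled cells with OHT (SD, n = 4). Without OHT FOXO3 was 274 with shFOXO707 and 138 with shFOXO33 (1 array each), against 449 ± 42.65 in scrambled cells (SD, n = 4). FOXO3 in scrambled cells was thus higher with OHT, and 810 lay above the scrambled level without OHT. FOXO1 averaged 236 with shFOXO707 and 163 with shFOXO33 with OHT (n = 2 each), against 501 ± 32.7 in scrambled cells (SD, n = 4). In scrambled cells without OHT FOXO1 averaged 103 ± 8.45 (SD, n = 4). The 3'/5' signal ratio of ACTB, a sign of RNA integrity, was 1.95 and 2.04 on the shFOXO707 arrays with OHT and lay between 1.49 and 1.74 on the others. It also moved with OHT in scrambled cells, at 1.60 or more on the 4 arrays with OHT against 1.59 or less on the 4 without OHT, and its part in the OHT results was not tested. Of the marker lists, 5 of 5 mesenchymal markers and 5 of 8 osteoblast markers passed the filter (COL1A1 between 7086 and 10320), while RUNX2, the osteoblast master regulator, lay between 16.5 and 46.6, below it. Of the other lists, 3 of 5 epithelial, 2 of 5 neural, 1 of 7 blood cell, 1 of 5 adipocyte and 0 of 5 hepatocyte markers passed. ADIPOQ and LEP, which define fat cells, lay at or below 26.8, but CIDEC, another adipocyte marker, lay between 80.0 and 142.9. The epithelial marker KRT18 lay between 2104 and 5568 and the neural marker NEFL between 2343 and 4596. The osteoblast marker COL1A2 lay between 88.3 and 234.

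Activation of ER-E2F1 in scrambled cells was followed by lower signals for 18 and higher signals for 7 of the 31 tested genes. Over all 7720 genes 46.4% were called lower and 24.0% higher (Benjamini-Hochberg adjusted p under 0.05 in limma), and the median log2 change was -0.32 for the 31 genes and -0.23 for all genes. With that shift removed by setting the arrays to a common median (median centring), the genes called were 9 lower and 7 higher, beside 30.6% and 32.3% of all genes. The 7 higher genes were ACSL1, INSIG1, FASN, ELOVL5, AACS, SQLE and IDI1, and all 7 kept their call after centring. The 9 lower genes that kept theirs were LPIN1, NSDHL, MSMO1, SC5D, HSD17B7, SREBF1, HMGCS1, PMVK and LSS. MVK, MVD, DHCR7, SREBF2, SCAP, INSIG2, ACACA, ELOVL6 and SCD were called lower only without centring. Scrambled arrays with and without OHT did not overlap at 25 of the 31 genes (80.6%), beside 75.5% of all genes. In knockdown cells OHT gave 12 lower and 5 higher genes, beside 37.3% and 20.6% of all genes, with a median of -0.17 for the list and -0.20 for all genes. After centring these were 8 lower and 10 higher, beside 22.5% and 28.8% of all genes. ACAT2, EBP, DHCR7, AACS and ELOVL5 gained a higher call there with centring.

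**Figure D1:**
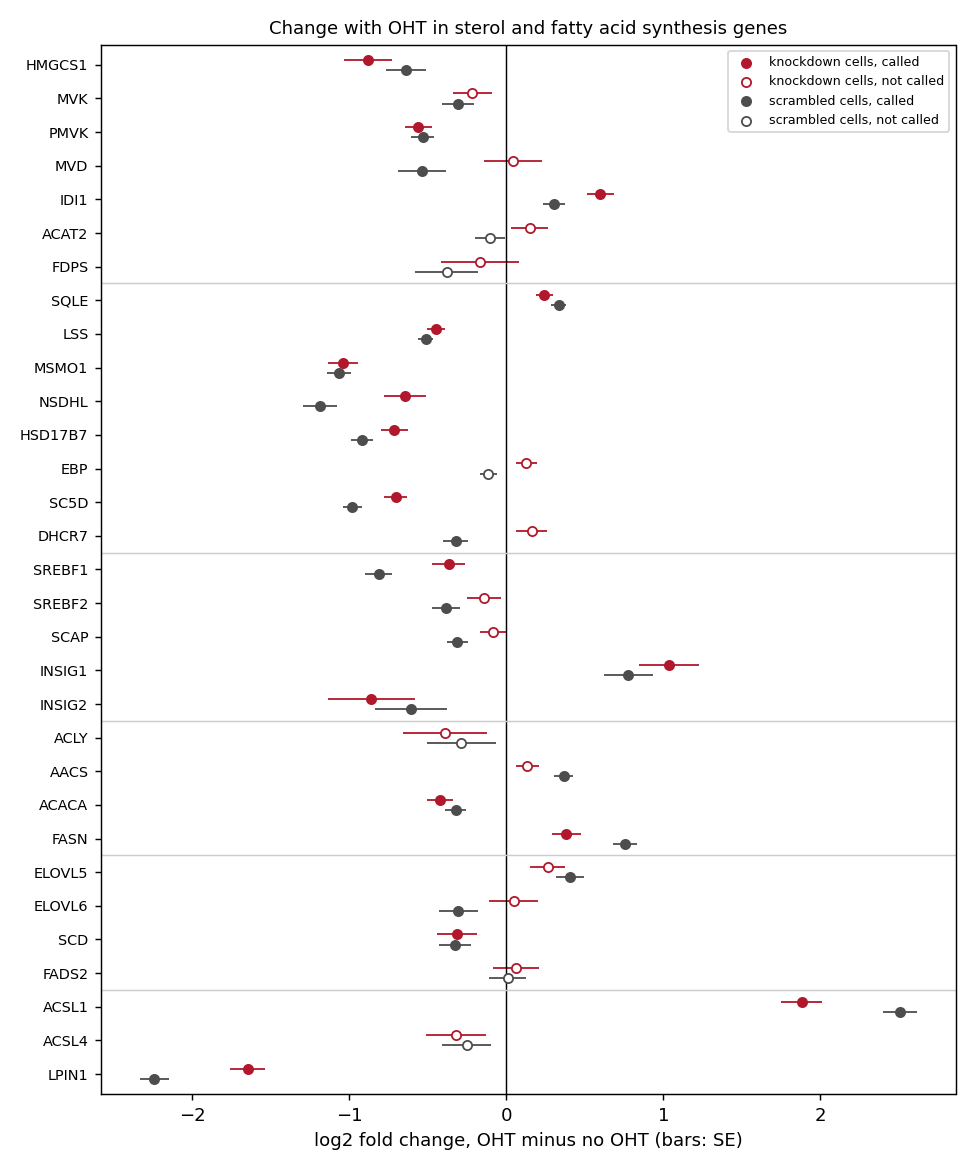
Log2 fold change with OHT (OHT minus no OHT, x axis) of the 31 tested genes (rows, grouped by step of the pathway) in knockdown cells (4 arrays with OHT and 2 without) and scrambled cells (4 and 4). Points are limma estimates on the log2(signal + 16) scale, bars are SE, and filled points passed an adjusted p of 0.05. ACSL1 at 2.51 and LPIN1 at -2.24 in scrambled cells lie farthest from 0, and the steps after squalene lie mostly to the left.

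Among the mevalonate enzymes, 4 of 7 fell and 1 rose with OHT in scrambled cells, beside 46.4% and 24.0% of all genes. After centring, when 30.6% of all genes were lower and 32.3% higher, HMGCS1, PMVK and IDI1 kept their calls. MVK (adjusted p = 0.509) and MVD (0.0989) lost theirs. HMGCS1, which joins acetyl-CoA and acetoacetyl-CoA at the entry to the pathway, had signals of 1277, 1033, 1123 and 1136 in scrambled cells with OHT, against 1767, 1679, 1881 and 1815 in scrambled cells without OHT. The groups did not overlap, and the log2 change was -0.64 ± 0.13 (SE, adjusted p = 0.000424), with -1.50 at its other probe set. IDI1, which isomerises isopentenyl diphosphate, went the other way, with 1305, 1311, 1233 and 1391 in scrambled cells with OHT, against 1191, 953, 1034 and 1068 in scrambled cells without OHT. The lowest IDI1 signal with OHT lay above the highest without it, and the change was 0.30 ± 0.07 (SE, adjusted p = 0.00133). The phosphorylating and decarboxylating steps fell: PMVK by 0.53, MVD by 0.54 and MVK by 0.31 (adjusted p = 1.47e-05, 0.00639 and 0.0154), and the MVK call was lost without scrambled OHT replicate 2 (adjusted p = 0.0564), while its dimmer probe sets fell by 0.74 and 0.99. FDPS, which makes farnesyl diphosphate, and ACAT2, which makes acetoacetyl-CoA, did not pass, at -0.38 and -0.10. In knockdown cells HMGCS1 fell by 0.88 and PMVK by 0.56, IDI1 rose by 0.60 ± 0.08 (SE, adjusted p = 3.73e-05), and MVD stood at 0.04.

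Of the enzymes from squalene to cholesterol, 6 of 8 tested fell and 1 rose in scrambled cells, beside 46.4% and 24.0% of all genes. Their median log2 change was -0.72, beside -0.23 for all genes. After centring only DHCR7 lost its call (adjusted p = 0.308). MSMO1, which removes methyl groups from carbon 4 of the sterol ring, had 2228, 2476, 2591 and 2311 in scrambled cells with OHT, against 4822, 5157, 5050 and 5162 in scrambled cells without OHT. Every array with OHT was far below every array without it, and MSMO1 changed by -1.07 ± 0.08 (SE, adjusted p = 2.67e-08), or 47.7% of the level without OHT. NSDHL, which acts on the same carbon, had 350, 443, 352 and 328 in scrambled cells with OHT, against 785, 965, 934 and 750 in scrambled cells without OHT. The groups did not overlap, the change was -1.19 ± 0.11 (SE, adjusted p = 3.54e-07), and its other probe set gave -1.10. The ketosteroid reductase HSD17B7 fell by 0.92 ± 0.07 and the sterol desaturase SC5D by 0.98 ± 0.06 (SE, adjusted p = 4.46e-08 and 5.97e-09), each with no overlap between the groups. LSS, which closes squalene epoxide into lanosterol, fell by 0.51 ± 0.05 (SE), and the last reductase DHCR7 by 0.32 ± 0.08 (SE, adjusted p = 0.00248). EBP, a sterol isomerase, did not pass at -0.12. TM7SF2 averaged 17.9 in scrambled cells with OHT and 56.4 in scrambled cells without OHT, both below the filter level of 79.1, so no change is given for it. SQLE, the oxygen-using enzyme that controls flux into this branch, was the gene that rose, with 6757, 6256, 6647 and 6656 in scrambled cells with OHT, against 5206, 5229, 5135 and 5316 in scrambled cells without OHT. The SQLE arrays did not overlap, and the change was 0.33 ± 0.05 (SE, adjusted p = 2.26e-05), with 0.37 and 0.64 at its other probe sets. In knockdown cells MSMO1 fell by 1.04, HSD17B7 by 0.71, SC5D by 0.71, NSDHL by 0.64 and LSS by 0.45, and SQLE rose by 0.24. DHCR7 and EBP stood there at 0.16 and 0.13 without passing. After centring both were called higher, at 0.39 and 0.35 (limma adjusted p = 0.00414 and 0.000655). The other DHCR7 probe set was lower with OHT in knockdown cells, averaging 710 with OHT and 793 without.

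The region upstream of the MSMO1 start is shown because this gene fell with OHT in both knockdown and scrambled cells and holds 4 copies of CCAAT, the letters bound by NF-Y, a factor known to act beside SREBP at sterol genes. The sequence is from RefSeq on GRCh38.p14, chr4:165327474-165327644 on the plus strand, from 195 to 25 bases before the start, and capitals mark CCAAT on either strand.
MSMO1: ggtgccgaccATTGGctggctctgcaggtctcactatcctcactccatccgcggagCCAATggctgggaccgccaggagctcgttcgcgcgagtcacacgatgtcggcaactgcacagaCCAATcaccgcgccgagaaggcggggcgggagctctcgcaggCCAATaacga
RefSeq start sites were found for 34 of the 38 genes, 50 starts in all, and the 250 bases before each start were searched on both strands. CCAAT was found before 27 of the 50 starts (54.0%), beside 32.0% of 35116 starts of all genes. The SREBP site TCACNCCAC was found before 2 (4.0%), beside 0.883% of all starts, and these belonged to SREBF2 and ACSL1. The palindrome TCACGTGA was found before 1 (2.0%, beside 0.854%), and the GC box GGGCGG, bound by SP1, before 41 (82.0%, beside 42.6%). The E2F letters TTTCCCGC, TTTGGCGC, TTTCGCGC and TTTGCCGC were found, as a group, before 4 starts (8.0%, beside 2.79%), which belonged to INSIG2, MVK and ACACA. Both INSIG2 starts were counted for the same site, because their windows overlap. Windows of ACLY, SC5D and IDI1 starts overlap too, so these counts of starts are not counts of separate sites. The forkhead letters GTAAACA, which FOXO factors can bind, were found before 1 start (2.0%, beside 2.98%), that of ELOVL6. These matches describe letters in these windows and were not tied to binding.

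All 5 regulators of the pathway were called with OHT in scrambled cells, 1 higher and 4 lower, beside 24.0% and 46.4% of all genes. After centring INSIG1 and SREBF1 kept their calls, and SREBF2 (adjusted p = 0.138), SCAP (0.266) and INSIG2 (0.156) lost theirs. INSIG1, the retention protein that is itself an SREBP target, had signals of 1303, 1479, 1367 and 1470 in scrambled cells with OHT, against 806, 782, 827 and 832 in scrambled cells without OHT. The arrays with OHT all lay above those without, and INSIG1 rose by 0.78 ± 0.16 (SE, adjusted p = 0.000566), with 0.54 and 0.42 at its other 2 probe sets. INSIG2, its paralog, had 146, 162, 130 and 179 in scrambled cells with OHT, against 283, 231, 230 and 226 in scrambled cells without OHT. INSIG2 changed by -0.61 ± 0.23 (SE, adjusted p = 0.0284), with no overlap between the groups, but the call was also lost without scrambled replicate 1 (0.0765) or scrambled OHT replicate 1 (0.0595) or 3 (0.0754). SREBF1 had 365, 364, 380 and 396 in scrambled cells with OHT, against 629, 618, 686 and 769 in scrambled cells without OHT. Each SREBF1 signal with OHT was well below each without, at -0.81 ± 0.09 (SE, adjusted p = 1.36e-06). SREBF2 averaged 366 ± 17.9 in scrambled cells with OHT and 482 ± 36.1 in scrambled cells without OHT (SD, n = 4 each), a change of -0.38 ± 0.09 (SE, adjusted p = 0.00170), with -0.30 at its other probe set. SCAP averaged 582 ± 25.3 in scrambled cells with OHT and 727 ± 18.2 in scrambled cells without OHT (SD, n = 4 each), a change of -0.31 ± 0.07 (SE, adjusted p = 0.000784). In knockdown cells INSIG1 rose by 1.04, INSIG2 fell by 0.86 and SREBF1 by 0.37. After centring, INSIG1 kept its call there, while INSIG2 (-0.63, adjusted p = 0.0711) and SREBF1 (-0.14, adjusted p = 0.302) lost theirs. With shFOXO33 as the only knockdown, which has 1 array without OHT, SREBF1 stood at -0.28, with no test given. Without centring SREBF2 and SCAP stood at -0.14 and -0.09 without passing.

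Upstream letters of these regulators are shown because INSIG1 and INSIG2 moved in opposite directions and because SREBF2, like ACSL1, holds the SREBP site. The windows are from RefSeq on GRCh38.p14, all on the plus strand: chr22:41832955-41833015 for SREBF2, chr7:155297698-155297833 for INSIG1 and chr2:118088311-118088361 for INSIG2. Capitals mark TCACCCCAC and CCAAT in SREBF2, CCAAT and TCACGTGA in INSIG1, and the E2F letters TTTCCCGC in INSIG2, with CCAAT on the minus strand read as ATTGG.
SREBF2: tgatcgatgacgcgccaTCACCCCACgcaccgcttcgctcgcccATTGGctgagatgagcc
INSIG1: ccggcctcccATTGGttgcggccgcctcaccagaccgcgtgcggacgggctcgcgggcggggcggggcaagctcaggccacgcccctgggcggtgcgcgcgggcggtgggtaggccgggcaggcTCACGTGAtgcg
INSIG2: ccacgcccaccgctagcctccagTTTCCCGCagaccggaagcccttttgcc

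The fatty acid genes moved in both directions, and the 2 widest changes of the list were those of ACSL1 and LPIN1. ACSL1, which activates long-chain fatty acids to acyl-CoA, had 2350, 2608, 2300 and 2159 in scrambled cells with OHT, against 353, 427, 404 and 422 in scrambled cells without OHT. No array came near the other group, and ACSL1 rose by 2.51 ± 0.11 (SE, adjusted p = 1.96e-10), a 5.68-fold rise, with 2.27 at its other probe set. LPIN1, a phosphatidate phosphatase that feeds triglyceride synthesis, had 224, 239, 248 and 222 in scrambled cells with OHT, against 1145, 1276, 1120 and 1114 in scrambled cells without OHT. LPIN1 fell by 2.24 ± 0.09 (SE, adjusted p = 1.10e-10), to 21.1% of the level without OHT, and its 2 other probe sets fell by 2.68 and 0.86. In knockdown cells ACSL1 rose by 1.88 and LPIN1 fell by 1.65.

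FASN, the enzyme that builds palmitate, had 1876, 1756, 1597 and 1662 in scrambled cells with OHT, against 1092, 1012, 978 and 963 in scrambled cells without OHT. The groups were well apart, at 0.76 ± 0.08 (SE, adjusted p = 8.14e-07), and FASN rose by 0.38 in knockdown cells. A dimmer FASN probe set stood at -0.20 in scrambled cells without passing. ELOVL5, which elongates polyunsaturated fatty acids, averaged 5888 ± 407 in scrambled cells with OHT and 4438 ± 145 in scrambled cells without OHT (SD, n = 4 each), and rose by 0.40 ± 0.09 (SE, adjusted p = 0.00124). AACS, which turns ketone bodies into acetoacetyl-CoA, averaged 995 ± 9.73 in scrambled cells with OHT and 770 ± 34.4 in scrambled cells without OHT (SD, n = 4 each), and rose by 0.36 ± 0.06 (SE, adjusted p = 7.45e-05). ELOVL5 and AACS stood at 0.26 and 0.13 in knockdown cells without passing. After centring both were called higher there, at 0.49 and 0.36 (limma adjusted p = 0.0019 and 0.000999). SCD, the desaturase that makes oleate, fell by 0.33 ± 0.10 (SE, adjusted p = 0.0119), but not after centring, and its 3 other probe sets stood at -0.18, -0.04 and 0.16. In knockdown cells SCD fell by 0.32 (adjusted p = 0.0458), the groups overlapped, and the call was lost after centring and when some single arrays were left out (adjusted p up to 0.0822). ELOVL6, which elongates palmitate, fell by 0.31 with an adjusted p of 0.0428, but the groups overlapped and leaving out any of 5 arrays ended the call (adjusted p up to 0.134). ACLY, which makes cytosolic acetyl-CoA from citrate, FADS2, a desaturase of polyunsaturated fatty acids, and ACSL4, which activates arachidonate, did not pass, at -0.29, 0.01 and -0.25, although 2 dimmer ACLY probe sets fell by 0.54 and 0.35.

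ACACA, which makes malonyl-CoA and commits acetyl units to fatty acids, was the only tested gene of the list whose probe sets were called in opposite directions. At the brighter probe set ACACA had 744, 802, 710 and 774 in scrambled cells with OHT, against 1033, 966, 882 and 930 in scrambled cells without OHT. At the other probe set it had 789, 767, 742 and 734 in scrambled cells with OHT, against 286, 244, 196 and 239 in scrambled cells without OHT. The arrays with OHT lay below all others at the brighter probe set and above all others at the dimmer one. The changes were -0.32 ± 0.07 and 1.60 ± 0.09 (SE, adjusted p = 0.000854 and 4.07e-09 over all probe sets), and -0.42 and 1.31 in knockdown cells. RefSeq gives ACACA 3 starts, and a window before each is shown because a gene with several starts can be read differently by different probe sets. Which transcripts each probe set reads was not tested. The windows are on the minus strand of GRCh38.p14 at chr17:37406901-37406951, chr17:37359286-37359336 and chr17:37299877-37299937, and capitals mark the E2F letters TTTGGCGC on the minus strand of the first window, read as GCGCCAAA, and CCAAT in the others.
ACACA start 1: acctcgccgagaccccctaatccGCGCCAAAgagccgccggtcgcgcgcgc
ACACA start 2: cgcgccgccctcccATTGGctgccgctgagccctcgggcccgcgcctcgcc
ACACA start 3: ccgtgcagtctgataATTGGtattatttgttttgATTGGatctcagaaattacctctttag

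Knockdown of FOXO1 and FOXO3 with OHT was followed by higher signals for 5 and lower signals for 4 of the 31 genes. Over all genes 14.7% were called higher and 8.01% lower, and the median log2 change was 0.01 for the list and 0.04 for all genes. SCD, HMGCS1, ACSL1 and FADS2 fell, and SREBF1, DHCR7, MVK, SCAP and SC5D rose. After median centring the balance turned, with 4 higher and 7 lower, beside 11.7% and 9.46% of all genes: SC5D lost its call, and MSMO1, IDI1 and FASN were called lower. This comparison uses the same 4 scrambled OHT arrays as the OHT comparison above. Knockdown and scrambled arrays with OHT did not overlap at 11 of the 31 genes (35.5%), beside 27.0% of all genes. Pooling takes the arrays of both hairpins as replicates, so that differences between the hairpins enter the error. With each hairpin as a group of its own and their mean set against scrambled cells, 10 were higher and 9 lower, beside 26.4% and 20.7% of all genes. Against the same scrambled arrays, 7 were higher and 5 lower with shFOXO707 (24.6% and 17.2% of all genes), and 10 were higher and 9 lower with shFOXO33 (27.8% and 21.5%).

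SCD had the largest change of the list with knockdown. Its signals were 1309 and 1314 with shFOXO707 and 1404 and 1496 with shFOXO33, against 3528, 3410, 3491 and 3303 in scrambled cells with OHT. Every knockdown array was below every scrambled array, and SCD fell by 1.31 ± 0.10 (SE, adjusted p = 3.31e-06), to 40.5% of the scrambled level. Each hairpin gave a fall by itself, of 1.38 with shFOXO707 and 1.23 with shFOXO33. The 3 other SCD probe sets fell by 0.79, 1.15 and 1.20. Without OHT the knockdown arrays had 1420 with shFOXO707 and 2083 with shFOXO33, against 5008, 4112, 4131 and 4046 in scrambled cells, a fall by 1.32 ± 0.13 (SE, adjusted p = 4.21e-05), so that the lower SCD signal was present with and without OHT. The interaction, which is how far the OHT response of knockdown cells exceeds the response of scrambled cells, was 0.01 for SCD.

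HMGCS1 had 665 and 657 with shFOXO707 and 529 and 469 with shFOXO33, against 1277, 1033, 1123 and 1136 in scrambled cells with OHT. The groups did not overlap, and HMGCS1 fell by 0.97 ± 0.13 (SE, adjusted p = 0.00016). Without OHT it had 1277 with shFOXO707 and 896 with shFOXO33, against 1767, 1679, 1881 and 1815 in scrambled cells, a fall by 0.73 ± 0.15 (SE, adjusted p = 0.0106). The other HMGCS1 probe set gave another picture, with 795 and 901 with shFOXO707 and 354 and 485 with shFOXO33, against 536, 551, 496 and 459 in scrambled cells with OHT. There shFOXO707 lay above the scrambled arrays and shFOXO33 below or within their range, and the pooled change was 0.21 ± 0.26 (SE, adjusted p = 0.698). With both probe sets averaged, the pooled change was -0.38 (adjusted p = 0.163), so the fall rests on the brighter probe set. Without OHT the other probe set had 1979 with shFOXO707 and 878 with shFOXO33, against 1630, 1394, 1379 and 1472 in scrambled cells, with shFOXO707 above and shFOXO33 below all scrambled arrays. Averaging both probe sets ended the call without OHT as well (-0.44, adjusted p = 0.290).

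**Figure D2:**
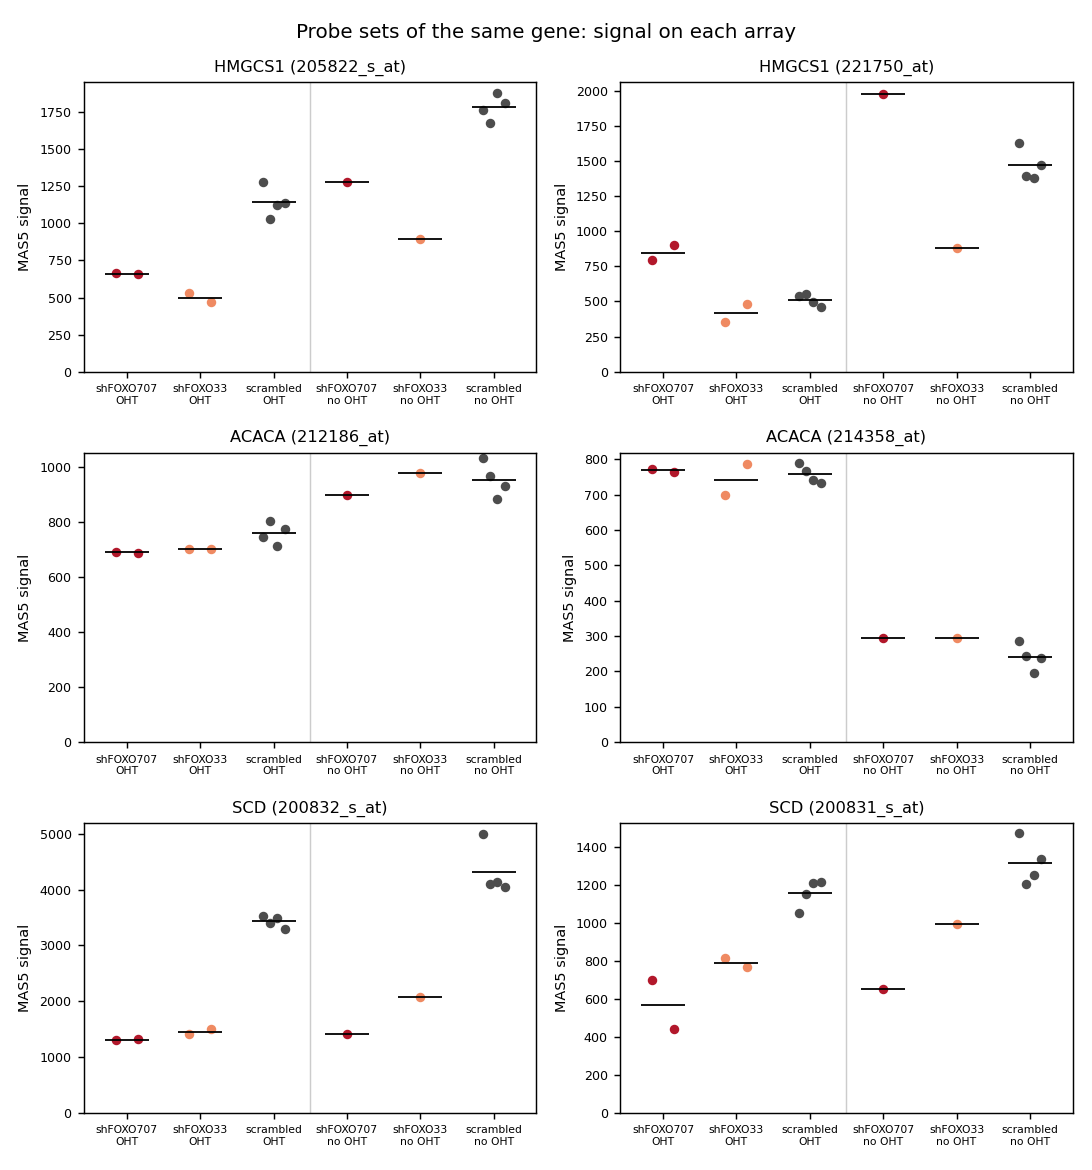
MAS5 signal on each array (points, y axis from 0) at 2 probe sets each of HMGCS1, ACACA and SCD, by group (x axis), with lines at the group means. The dimmer HMGCS1 probe set is higher with shFOXO707 (795 and 901) than with shFOXO33 (354 and 485) with OHT, the ACACA probe sets move in opposite directions with OHT, and the SCD probe sets are lower in all knockdown groups.

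Windows before the starts of SCD and HMGCS1 are shown because these genes, HMGCS1 at its brighter probe set only, fell with knockdown with and without OHT. They are from RefSeq on GRCh38.p14, chr10:100346988-100347063 on the plus strand for SCD and chr5:43313497-43313577 on the minus strand for HMGCS1. Capitals mark CCAAT, read as ATTGG on the opposite strand, and neither gene's searched window held GTAAACA.
SCD: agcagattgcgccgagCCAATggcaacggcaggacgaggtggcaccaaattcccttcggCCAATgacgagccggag
HMGCS1: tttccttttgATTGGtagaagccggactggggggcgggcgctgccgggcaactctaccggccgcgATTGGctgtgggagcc

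Of the 5 regulators, 2 rose and 0 fell with knockdown and OHT, beside 14.7% and 8.01% of all genes. SREBF1 had 567 and 542 with shFOXO707 and 547 and 493 with shFOXO33, against 365, 364, 380 and 396 in scrambled cells with OHT. All 4 knockdown arrays lay above all 4 scrambled arrays, and SREBF1 rose by 0.50 ± 0.09 (SE, adjusted p = 0.00128). SCAP had 693 and 657 with shFOXO707 and 756 and 732 with shFOXO33, against 610, 571, 553 and 595 in scrambled cells with OHT. SCAP rose by 0.28 ± 0.07 (SE, adjusted p = 0.00916), with no overlap. SREBF2 did not pass at 0.26 (adjusted p = 0.0509), and INSIG1 and INSIG2 stood at 0.23 and -0.14. Without OHT none of the 5 regulators passed, and SREBF1 stood at 0.05 ± 0.11 (SE).

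Among the enzymes, DHCR7 had 873 and 852 with shFOXO707 and 1038 and 897 with shFOXO33, against 691, 680, 649 and 751 in scrambled cells with OHT. The groups did not overlap, DHCR7 rose by 0.39 ± 0.08 (SE, adjusted p = 0.00359), and its other probe set rose by 0.25. MVK rose by 0.33 ± 0.10 (SE, adjusted p = 0.0311), with 0.59 and 0.74 at its dimmer probe sets, but its call was lost without scrambled OHT replicates 2, 3 or 4 and without replicate 1 of either hairpin (adjusted p up to 0.0956). SC5D rose by 0.19 ± 0.06 (SE, adjusted p = 0.0342), and that call was lost after centring and when any of 4 arrays was left out (adjusted p up to 0.106). ACSL1 had 1484 and 1660 with shFOXO707 and 1627 and 1669 with shFOXO33, against 2350, 2608, 2300 and 2159 in scrambled cells with OHT. ACSL1 fell by 0.54 ± 0.11 (SE, adjusted p = 0.00324), with no overlap and with -0.52 at its other probe set, while without OHT it stood at 0.08 ± 0.13 (SE). FADS2 averaged 782 ± 120 in knockdown cells and 996 ± 58.9 in scrambled cells with OHT (SD, n = 4 each). FADS2 fell by 0.35 ± 0.12 (SE, adjusted p = 0.0486), the groups overlapped, and leaving out any of 9 arrays ended the call (adjusted p up to 0.123). ELOVL5 stood at -0.06, while a dimmer ELOVL5 probe set fell by 0.53 (adjusted p = 0.0173 over all probe sets).

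**Figure D3:**
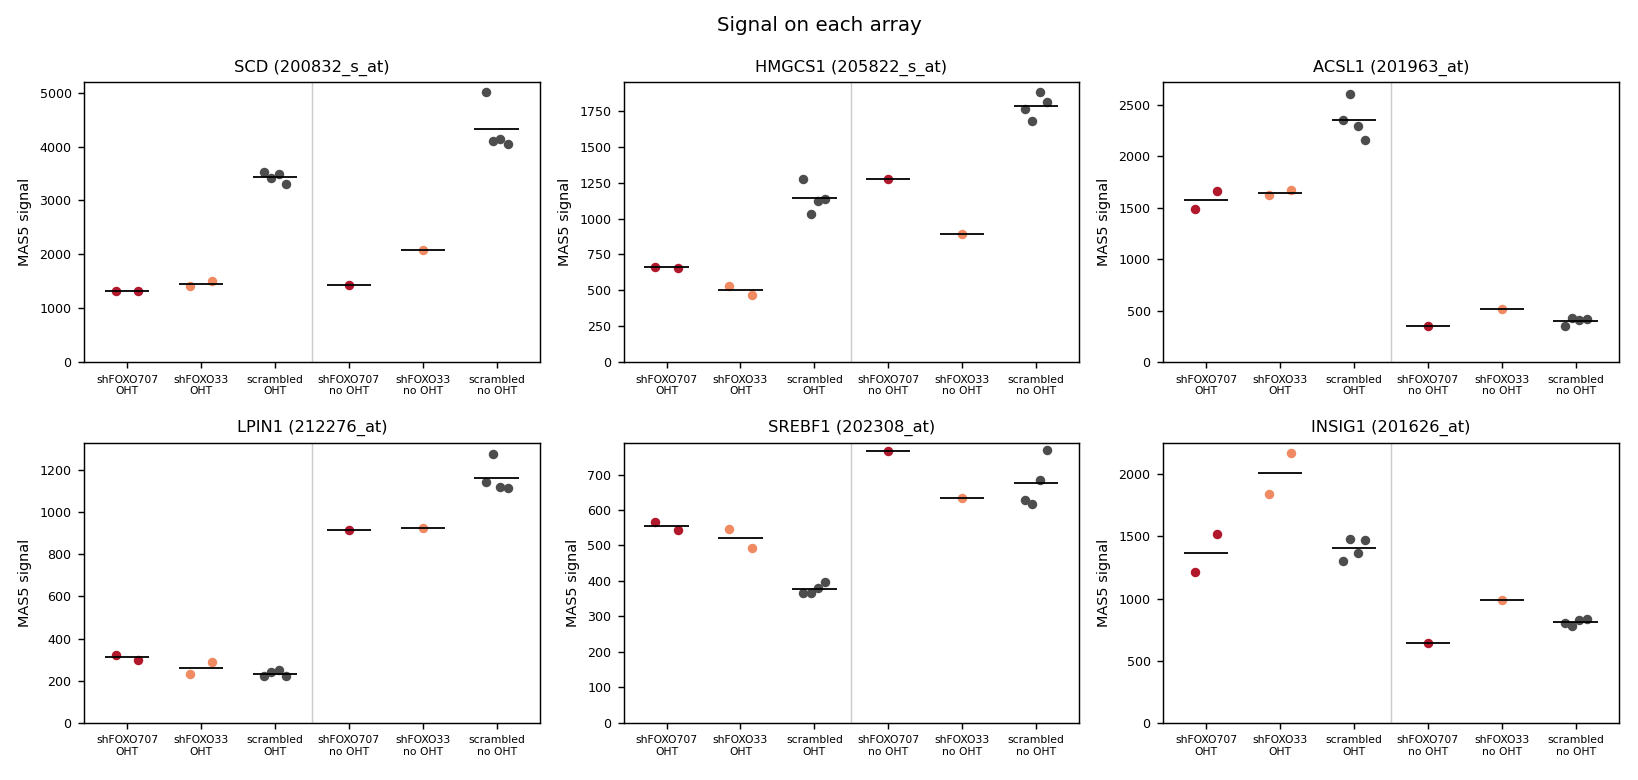
MAS5 signal on each array (points, y axis from 0) of SCD, HMGCS1, ACSL1, LPIN1, SREBF1 and INSIG1, by group (x axis), with lines at the group means. SCD is lower in all knockdown groups, ACSL1 is high only with OHT and lower there with the hairpins, and SREBF1 with OHT is higher with the hairpins (493 to 567) than with the scrambled hairpin (364 to 396).

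Without OHT, knockdown gave 3 lower and 0 higher genes of the 31, beside 2.97% and 4.84% of all genes (10 of the 31, beside 21.5% of all genes, had an unadjusted limma p under 0.05). With each hairpin as a group of its own, 1 was higher and 10 lower, beside 15.4% and 15.3% of all genes. The 3 were SCD, HMGCS1 and IDI1, and the median was -0.08 for the list and 0.02 for all genes. IDI1 had 761 with shFOXO707 and 763 with shFOXO33, against 1191, 953, 1034 and 1068 in scrambled cells without OHT. IDI1 fell by 0.46 ± 0.08 (SE, adjusted p = 0.00446), and with OHT it stood at -0.17 (adjusted p = 0.0941). IDI1 and HSD17B7 were represented by probe sets of the _x_at kind, which can also bind related transcripts. With 2 knockdown arrays, 1 for each hairpin, this comparison is the least precise of those made.

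No gene of the 31 passed for the interaction, in which 0.35% of all genes passed in limma. An unadjusted p under 0.05 was found for 12 of the 31 (38.7%), beside 10.5% of all genes, and 9 of these were positive and 3 negative. The 9 positive ones were MVD, IDI1, NSDHL, EBP, SC5D, DHCR7, SREBF1, SCAP and LPIN1, and the 3 negative ones AACS, FASN and ACSL1. LPIN1 was nearest to the threshold, at 0.59 ± 0.14 (SE, adjusted p = 0.0993), and ACSL1 stood at -0.63 ± 0.17 (SE, adjusted p = 0.143). The call depended on how the hairpins were treated. With each hairpin as a group of its own, 9 of the 31 were called, 7 positive and 2 negative, beside 4.96% and 4.73% of all genes. These were LPIN1 (0.59), NSDHL (0.54), DHCR7 (0.48), SREBF1 (0.45), SC5D (0.28), ACAT2 (0.25) and EBP (0.24), and ACSL1 (-0.63) and FASN (-0.38). In that model the spread between hairpins does not enter the error.

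The hairpins differed from each other at 11 of the 31 genes with OHT, 8 higher and 3 lower with shFOXO707 than with shFOXO33, beside 22.1% and 21.4% of all genes. The median difference was 0.02 for the list and -0.01 for all genes. FOXO3 was higher with shFOXO707 than with shFOXO33, as was the ACTB 3'/5' ratio, and SPARC, an osteoblast marker, had 8459 and 7608 with shFOXO707 and 777 and 832 with shFOXO33, against 8321 to 9085 in scrambled cells with OHT. Of the 5 tested osteoblast markers, 2 were higher and 1 lower with shFOXO707 than with shFOXO33. The lower one, the alkaline phosphatase ALPL, had 92.8 and 79.6 with shFOXO707 and 224.5 and 241.4 with shFOXO33. Their part in the differences below was not tested.

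FDPS had 1687 and 1703 with shFOXO707 and 3212 and 3068 with shFOXO33, against 2741, 2735, 2788 and 2733 in scrambled cells with OHT. It lay below the scrambled arrays with shFOXO707 and above them with shFOXO33, a difference of -0.88 ± 0.07 (SE, adjusted p = 4.46e-08). INSIG2 had 185 and 195 with shFOXO707 and 98.7 and 95.8 with shFOXO33, against 146, 162, 130 and 179 in scrambled cells with OHT. INSIG2 differed by 0.86 ± 0.15 (SE, adjusted p = 0.000228), with shFOXO33 below the scrambled arrays and shFOXO707 above them. INSIG1 went the other way, with 1215 and 1517 with shFOXO707 and 1840 and 2175 with shFOXO33, against 1303, 1479, 1367 and 1470 in scrambled cells with OHT, a difference between hairpins of -0.55 ± 0.10 (SE, adjusted p = 0.000306). The shFOXO707 arrays of INSIG1 lay below and above the scrambled range, and the shFOXO33 arrays lay above it. ACLY had 4426 and 4424 with shFOXO707 and 2747 and 2374 with shFOXO33, against 3341, 4090, 4291 and 3926 in scrambled cells with OHT, a difference of 0.79 ± 0.14 (SE, adjusted p = 0.000303). ACLY was below all scrambled arrays with shFOXO33. Its dimmer probe sets averaged 733 and 450 with shFOXO707 and 552 and 386 with shFOXO33, against 706 and 480 in scrambled cells with OHT. With shFOXO707 the mean thus lay above the scrambled mean at the first of these and below it at the second. ACAT2 differed by -0.34 ± 0.06 (SE, adjusted p = 0.000515), HMGCS1 by 0.40, ELOVL5 by 0.31 and MSMO1 by 0.27. The ELOVL5 difference was lost with its probe sets averaged (0.07, adjusted p = 0.525). The MVD difference (0.49) was lost when any hairpin array with OHT was left out, and without the filter. That of SREBF2 (0.26) was lost without some single arrays, with quantile normalization, with probe sets averaged and with the replicate block. The SQLE difference (0.13) was lost in most cases of leaving out a single array, after centring, without the filter and without the variance trend. In the arrays without OHT, 1 for each hairpin, FDPS differed by -0.67, INSIG1 by -0.62, INSIG2 by 0.86 and ACLY by 0.85. These are differences between unreplicated arrays and carry no test here. For these 4 genes the pooled knockdown values above average hairpins that lie on different sides of the scrambled arrays or apart from each other.

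**Figure D4:**
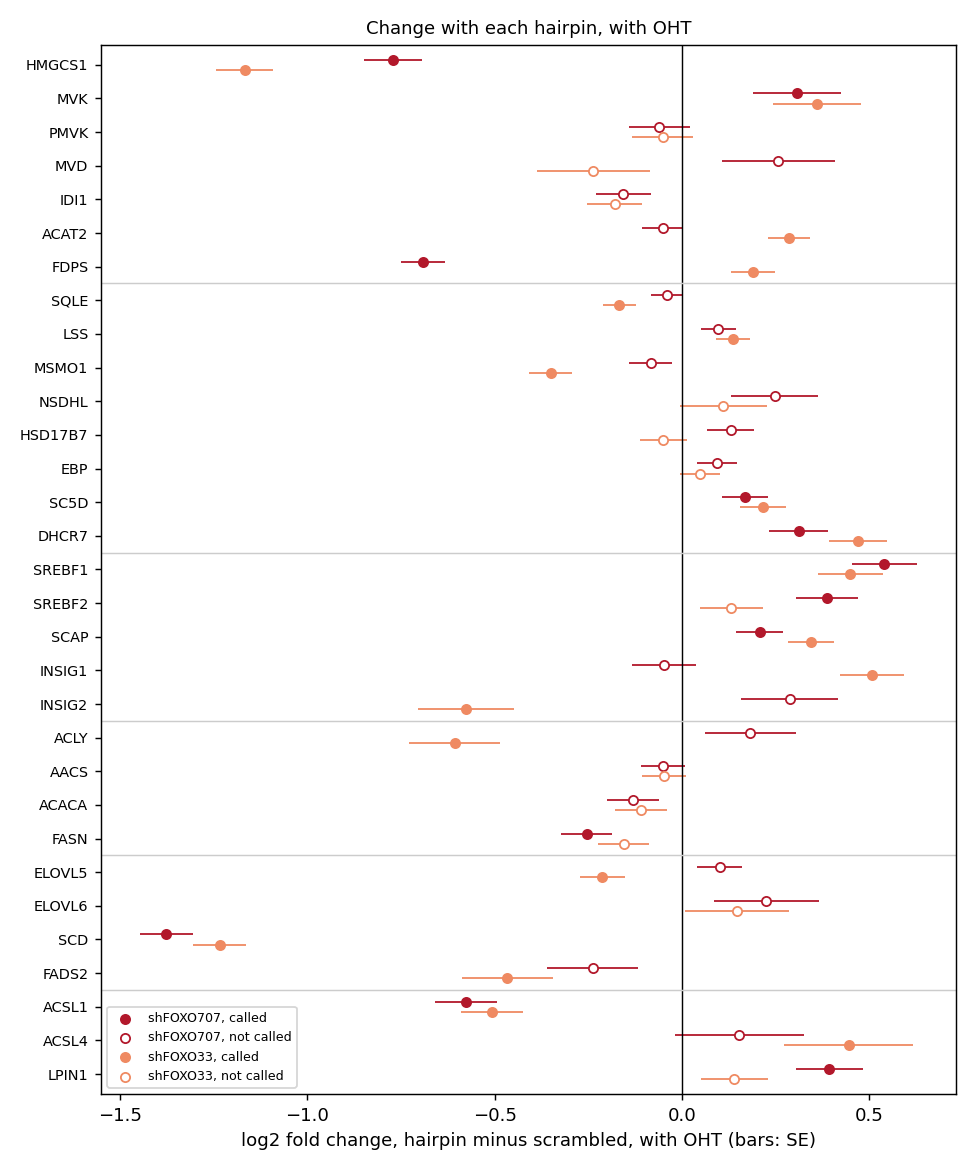
Log2 fold change with each hairpin against scrambled cells with OHT (x axis) for the 31 tested genes (rows), for shFOXO707 and shFOXO33 (2 arrays each) against 4 scrambled arrays. Points are limma estimates on the log2(signal + 16) scale, bars are SE, and filled points passed an adjusted p of 0.05. SCD lies at -1.38 and -1.23, while FDPS, INSIG2 and ACLY (at its brightest probe set) lie on opposite sides of 0.

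**Figure D5:**
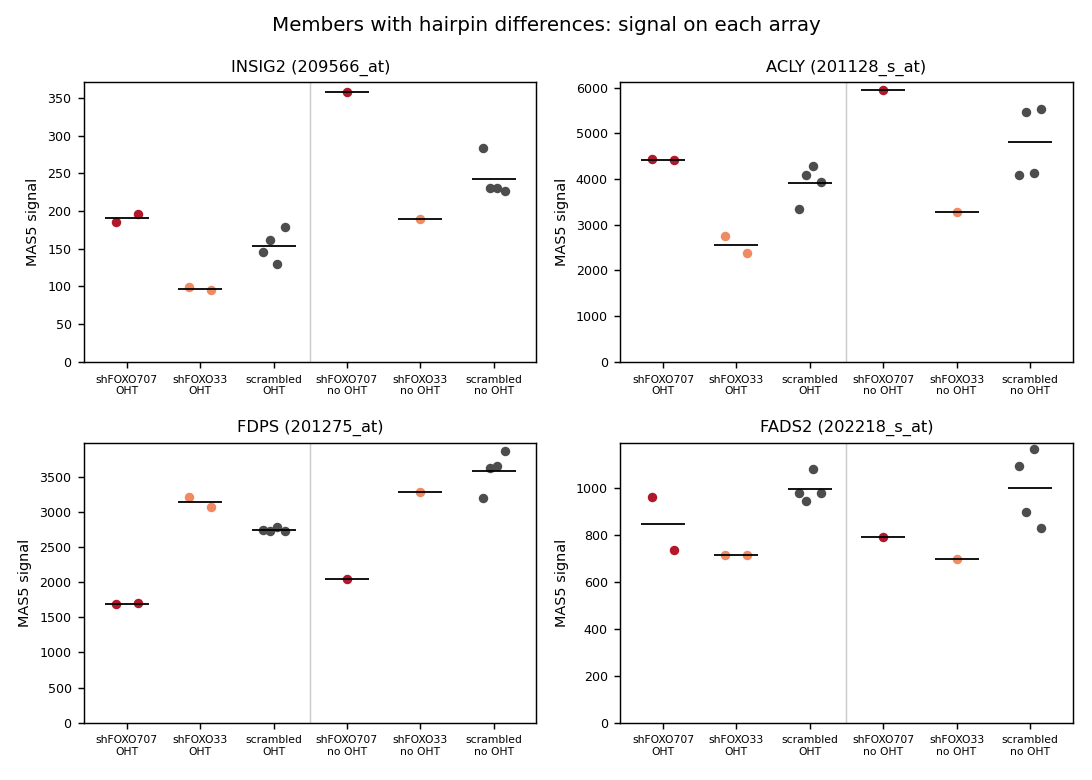
MAS5 signal on each array (points, y axis from 0) of INSIG2, ACLY, FDPS and FADS2, by group (x axis), with lines at the group means. INSIG2 and ACLY are higher, and FDPS lower, with shFOXO707 than with shFOXO33, with and without OHT.

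Neighbouring pathways are given for comparison, each as the genes called with OHT in scrambled cells (24.0% of all genes higher and 46.4% lower, or 32.3% and 30.6% after centring) and with knockdown and OHT (14.7% and 8.01%). The prenyl branch, which uses farnesyl and geranylgeranyl diphosphate, had 13 tested genes, and 13 were lower with OHT (7 after centring). RABGGTB, which attaches prenyl groups to Rab proteins, changed by -1.98 and TRIT1, which modifies tRNA, by -1.42. With knockdown 5 of the 13 were higher and 0 lower, among them DHDDS, which makes dolichol (0.88), and RABGGTB (0.85). Of 9 genes of SREBP processing and INSIG turnover, 2 were higher and 6 lower with OHT (2 and 3 after centring), led by PAQR3, which tethers SCAP in the Golgi (2.49), and RNF139, a ubiquitin ligase (-0.77), and with knockdown 0 were higher and 2 lower (UBE2G2 -0.71, PAQR3 -0.54). Of 8 other sterol genes, 3 were higher and 3 lower with OHT (5 and 2 after centring), led by SOAT1, which esterifies cholesterol (1.21), and POR, which passes electrons to sterol enzymes (-1.20), and with knockdown 1 was higher, the electron donor CYB5R3 (0.85).

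Of 12 genes of sterol efflux and LXR targets, 3 were higher and 6 lower with OHT (4 and 5 after centring), led by the sterol binding protein OSBPL1A (1.80) and MYLIP, a ubiquitin ligase (-0.99). With knockdown 0 were higher and 5 lower, led by OSBPL10 (-0.83) and OSBP (-0.65). Of 11 other fatty acid synthesis genes, 4 were higher and 2 lower with OHT (5 and 2 after centring), led by the dehydratase HACD3 (1.03) and the malic enzyme ME1 (-0.74). With knockdown 0 were higher and 2 lower, MID1IP1, which activates acetyl-CoA carboxylase (-0.62), and ME1 (-0.31). Of 13 glycerolipid genes, 8 were higher and 5 lower with OHT (8 and 3 after centring), led by CDS1, which makes CDP-diacylglycerol (1.31), and PCYT1A, which controls phosphatidylcholine synthesis (-1.04). With knockdown 1 was higher and 3 lower, led by DGAT1, which makes triglyceride (-0.62), and PLPP1 (-0.51). Of 19 fatty acid oxidation genes, 2 were higher and 12 lower with OHT (3 and 6 after centring), led by the nuclear receptor PPARD (-1.46) and CPT2, which brings acyl groups into mitochondria (-1.25). With knockdown 2 were higher and 0 lower, PPARD (0.86) and ETFA (0.22).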

How the data were processed

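The authors deposited 1 intensity per probe set and array for 14 samples, from MAS5 per the submitters' processing notes, in a version they do not state. The trimmed mean of each array was 500, so the deposited intensities were taken as scaled. Arrays have no sequencing depth, and their number limits the precision. Of 22277 probe sets, 62 controls, 1043 naming several genes and 2108 naming none were left out. All tests used log2(signal + 16), a scale that understates changes of dim genes. Probe sets with a mean above the 40th percentile (6.57, a signal of 79.1) were kept, with 1 for each gene, which gave 7720 genes.

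Differences were tested with limma 3.58.1 in R 4.3.3 (two-sided, variance trend, Benjamini-Hochberg adjustment over the 7720 genes) in 4 groups with hairpins pooled, and in 6 groups for each hairpin and their difference. The model was tested on simulated data. Single probe sets were adjusted over all probe sets. Same-numbered arrays did not deviate together (r from -0.015 to 0.047), so the numbers were not taken to pair arrays.

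The 38 genes, 7 pathway lists and 7 marker lists were chosen with earlier results of these data known. Named with full values were the largest changes in each comparison among called genes, the regulators, HMGCS1 and any gene whose probe sets were called in opposite directions. Promoter sequences came from a RefSeq table on GRCh38.p14. Alternatives covered pseudocounts, filters, centring, quantile normalization, probe set choice, hairpin grouping, the replicate block and leaving out each array.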

Additional observations from a re-analysis of the deposited data

Results flagged for a closer look

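In the groups of 4 scrambled arrays, 62 sets of signals were examined for 1 array lying apart from the other 3, by Dixon's gap criterion, and 4 did. Chance gives about 1 in 20. FDPS was at 2788 on scrambled OHT replicate 3, against 2733 to 2741 on the other scrambled OHT arrays, and LSS at 1500 on scrambled OHT replicate 4, against 1419 to 1426. INSIG2 was at 282.9 on scrambled replicate 1 without OHT, against 226 to 231 on the others. SCD was at 5008 on the same array, against 4046 to 4131.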

How the results depend on the processing

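Among the values recomputed for the 31 genes, 4134 kept their side of the threshold, 101 newly passed it and 102 no longer passed it. Another 4 changed sign with a call before or after the change. Sign changes without a call on either side were counted among the 4134. In every alternative that gave a value, 16 of 25 calls with OHT in scrambled cells held, 12 of 17 in knockdown cells, 4 of 9 with knockdown and OHT (SCD, SREBF1, DHCR7 and ACSL1), 2 of 3 without OHT and 7 of 11 between hairpins. Centring each array on its own median left 16 called with OHT in scrambled cells. With 6 groups, or with only shFOXO33 or only shFOXO707 as the knockdown, calls were 19, 19 and 12 for knockdown with OHT. With 6 groups 47.2% of all genes were called in that comparison. Each hairpin had 1 array without OHT, so no calls with the hairpins as separate groups are counted without OHT or for the interaction. Averaging all probe sets turned the ACACA change with OHT to 0.45 in knockdown cells and 0.64 in scrambled cells. With only shFOXO33, FDPS with knockdown and OHT was 0.19. INSIG1 without OHT was 0.28 there, from 1 knockdown array. Neither was called in the pooled model. Leaving out each array gave 23 to 25 calls with OHT in scrambled cells, 16 to 18 in knockdown cells, 6 to 9 for knockdown with OHT, 3 to 4 without OHT, 0 to 1 for the interaction (1 without shFOXO33 OHT replicate 1) and 8 to 11 between hairpins. With the replicate block, calls were 24 with OHT in scrambled cells, 7 for knockdown with OHT (SC5D, SCAP and FADS2 lost theirs) and 10 between hairpins. For the other comparisons no paired analysis was possible because the hairpin arrays without OHT carry no number. The causes of these changes were not tested. TM7SF2 signals lay below the filter in both scrambled groups, which limits what it can show.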

Other observations

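In neighbouring lipid pathways the hairpins also differed with OHT, and the genes named here were chosen after their values were seen. IDH1, which makes cytosolic NADPH, differed by -2.41 ± 0.09 (SE, adjusted p = 1.30e-11) between shFOXO707 and shFOXO33. Of 19 fatty acid oxidation genes, 2 were higher and 5 lower with shFOXO707 than with shFOXO33, beside 22.1% and 21.4% of all genes. Among them HADHA, a subunit of the mitochondrial trifunctional protein, was at -0.83 and its partner subunit HADHB at -0.31. The elongation genes ELOVL4 (1.06) and HACD2 (0.25) were higher with shFOXO707. SPARC had 8508 on the shFOXO707 array and 2006 on the shFOXO33 array without OHT, against 8872 to 9433 in scrambled cells without OHT. ALPL, another osteoblast marker, went the other way, with 106.5 on the shFOXO707 array and 273.5 on the shFOXO33 array, against 121.5 to 164.9 in scrambled cells without OHT.

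Without OHT, SCD had 1420 on the shFOXO707 array and 2083 on the shFOXO33 array, with no replicate of either. With OHT the SCD difference between hairpins was -0.14 at its brightest probe set, which did not pass, and -0.49, -0.82 and -0.91 at its 3 dimmer ones, which did.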
